A study of Rattus norvegicus with 32 samples.

Results

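The mammary gland expression of 2 inbred rat strains, ACI and BUF/N, was compared on the 5 arrays titled as ACI samples and the 5 titled as BUF/N samples, which are 10 of the 32 arrays of the study. The arrays of each strain are called ACI 1 to 5 and BUF/N 1 to 5 after their sample numbers. All were described as normal mammary gland, and neither a treatment nor an altered allele was named for any sample. The title of the study asks about inherited differences in susceptibility to mammary cancer among rat strains. The other single-sample arrays, 5 each of the inbred strains Cop, F344 and WF and of F1 rats bred from Cop and F344, entered the fit and serve here to place both strains. The arrays of 1 Cop pool and 1 F344 pool were not analysed here. Age, sex, reproductive stage and time of collection were not given in the sources used here, and nothing said that the samples of a strain were separate animals, so p-values measure only the spread between these samples.

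ACI is an inbred strain known for mammary tumours that form under prolonged oestrogen, and BUF/N is known as a strain in which chemical carcinogens readily induce them. The resting gland holds ducts of inner luminal and outer basal epithelial cells in a pad of fat, with fibroblasts, vessels, nerves and immune cells. Each array therefore reads the sum of all these cells, and fewer cells of a type and less RNA per cell cannot be told apart. Values printed are linear signals, on which an oligonucleotide array reports the brightness of a probe set, a group of short probes designed for 1 transcript. Changes are differences of log2 signals, ACI minus BUF/N, with signals under a floor of 18.3 raised to it, so that 1 on this scale is a 2-fold difference. A gene was said to rise or to fall in ACI only where limma gave an adjusted p under 0.05.

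The ACI arrays were not alike. ACI 2 and ACI 5 correlated with each other at r = 0.951 across probe sets and with the other ACI arrays at 0.876 to 0.913, while ACI 1, 3 and 4 correlated at 0.948 to 0.960 and the BUF/N arrays at 0.933 to 0.967. An ACI array and a BUF/N array correlated at 0.851 to 0.926. The median signal was 102.1 on ACI 2 and 101.8 on ACI 5, against 77.4 to 81.2 on the other ACI arrays and 80.1 to 83.7 on the BUF/N arrays. The ratio of the 3′ to the 5′ actin probe set, a sign of RNA integrity and labelling, was 1.78 and 1.80 on those arrays, 1.19 to 1.34 on the other ACI arrays and 1.01 to 1.5 on BUF/N. Calls that were lost without ACI 2 and ACI 5, a fit on fewer arrays, are named as such.

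Of 5039 probe sets tested, 688 (13.7%) passed, of which 370 (7.34%) were higher in ACI and 318 (6.31%) lower. The change was beyond 2-fold for 246 of them, 127 higher and 119 lower. On 442 (8.77%) the test was passed and the 5 signals of 1 strain lay wholly above the 5 of the other. Without ACI 2 and ACI 5, 369 probe sets passed, 201 higher and 168 lower, and 304 of these were among the 688. Counted as genes, with the brightest probe set taken for each, 367 of 3053 (12%) passed, 190 (6.22%) higher and 177 (5.8%) lower, around a median change of 0.01. In the fit without ACI 2 and ACI 5, 98 of the 3053 genes passed as higher and 100 as lower. The counts of each gene list below stand against these shares. Those of glycolysis, matrix, immediate early, adipocyte, cell cycle and proteasome genes were among the ones near them. Centring each array on its median moved the share of calls that were higher in ACI from 53.8% to 45.0%.

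**Figure D1:**
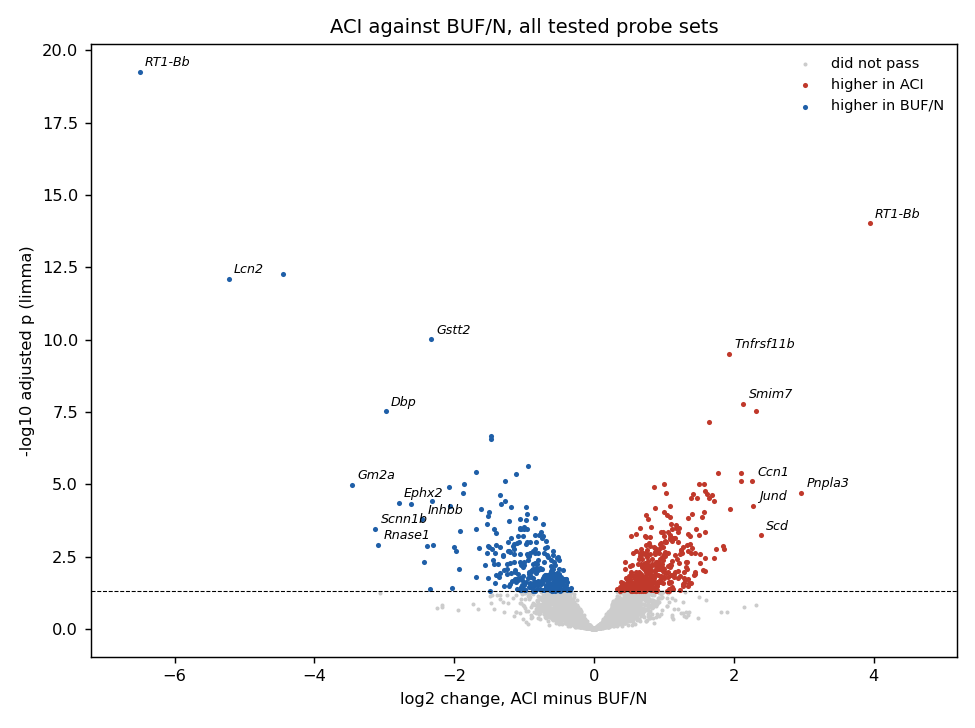
Change between the strains (x axis, log2, ACI minus BUF/N) against the −log10 adjusted p of limma (y axis) for the 5039 tested probe sets, with red for the 370 higher in ACI, blue for the 318 higher in BUF/N and grey for the rest. The dashed line marks the threshold of 0.05, and the points farthest out are probe sets of RT1-Bb, on both sides, and Lcn2.

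Of the 15 genes with the largest rise in ACI, several act in lipid metabolism or its control (Pnpla3, Scd, Me1 and Insig1). Those with the largest fall included the secreted protein gene Lcn2 and the clock genes Dbp and Per2.

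**Figure D2:**
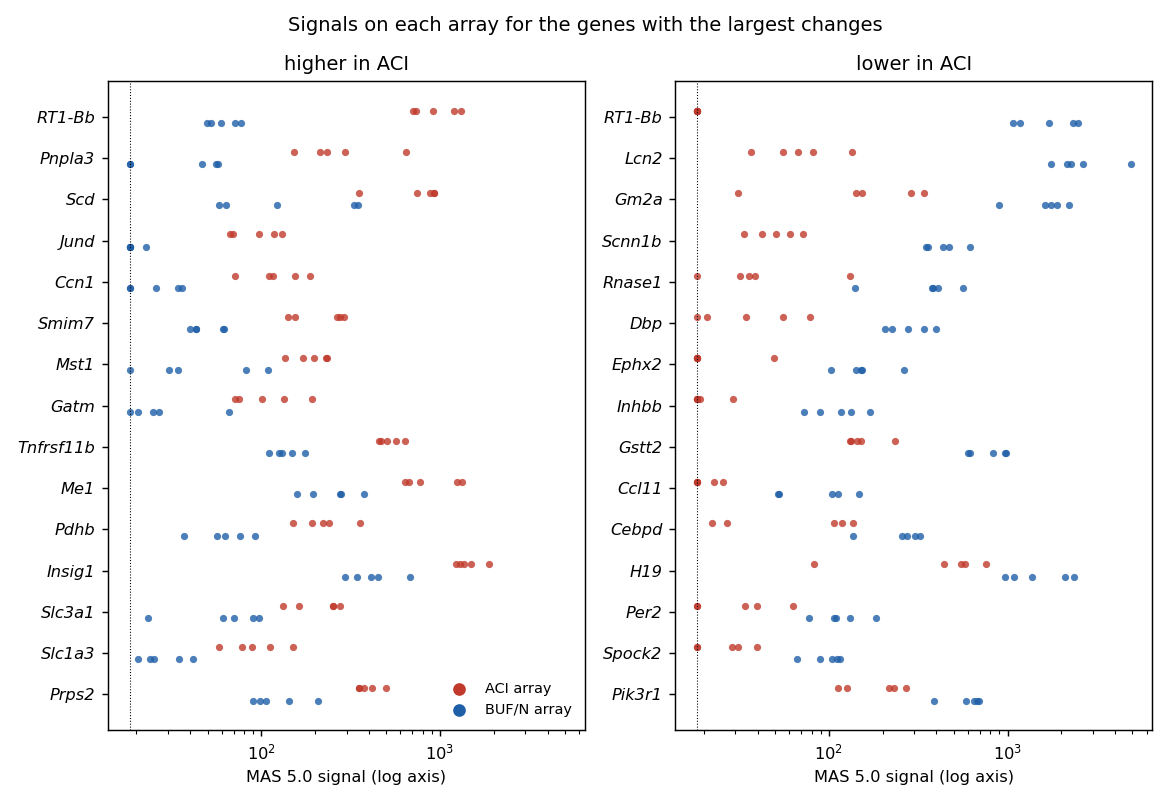
Signals on each array (x axis, log scale) for the 15 genes with the largest change in each direction among those whose strains do not overlap, with ACI in red and BUF/N in blue. Signals under the floor of 18.3 (dotted line) are drawn on it, and for each gene all points of 1 colour lie to one side of the other.

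Lcn2 stood far below BUF/N in ACI. It encodes lipocalin 2, a secreted protein that binds bacterial siderophores and is made by epithelia and neutrophils. Its signals were 67.1, 81.1, 36.7, 55.5 and 135.5 on ACI 1 to 5 and 2162.5, 4890.6, 1744.0, 2256.1 and 2655.0 on BUF/N 1 to 5. Every BUF/N array was thus more than an order of magnitude above every ACI array. The means were 75.2 ± 37.4 and 2742 ± 1244 (SD, n = 5 each), and the change was −5.23 ± 0.33 (SE; limma, adjusted p = 7.89e-13), or 37.4-fold on the floored scale. The medians of Cop, WF and F1 were 1657, 2020.5 and 1982 and that of F344 was 80.9, so that ACI lay with F344 and BUF/N with the other groups.

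RT1-Bb, the beta chain of the class II molecule RT1.B, which presents peptides to helper T cells, was represented by 4 probe sets that went both ways. On X56596_at the ACI signals were 911.9, 730.4, 1305.6, 709.9 and 1189.9 and the BUF/N signals 59.8, 49.4, 71.4, 77.2 and 52.5. On M36151cds_i_at they were 1.2, 2.0, 1.0, 1.2 and 2.5 in ACI and 2329.6, 1078.3, 1174.0, 2474.7 and 1710.3 in BUF/N. One strain was thus bright where the other was at or near background, in opposite order on these probe sets. The changes were 3.94 ± 0.21 (adjusted p = 9.37e-15) and −6.50 ± 0.22 (adjusted p = 5.52e-20), the latter at least 90.5-fold because every ACI array lay under the floor. The third probe set, U65217_i_at, changed by −4.45, and the fourth, M36151cds_s_at, by −1.16 with all arrays of both strains above 400. M36151cds_i_at was bright in BUF/N alone among the 6 groups, with medians of 1.2 to 1.4 elsewhere, whereas on X56596_at and U65217_i_at the medians of WF, 45.6 and 672.7, lay nearer those of BUF/N, 59.8 and 404.5, than those of ACI. Class II beta chains are among the most variable genes between rat strains. Whether the probes match the allele of each strain was not tested, so no difference in the level of RT1-Bb is drawn from these values.

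**Figure D3:**
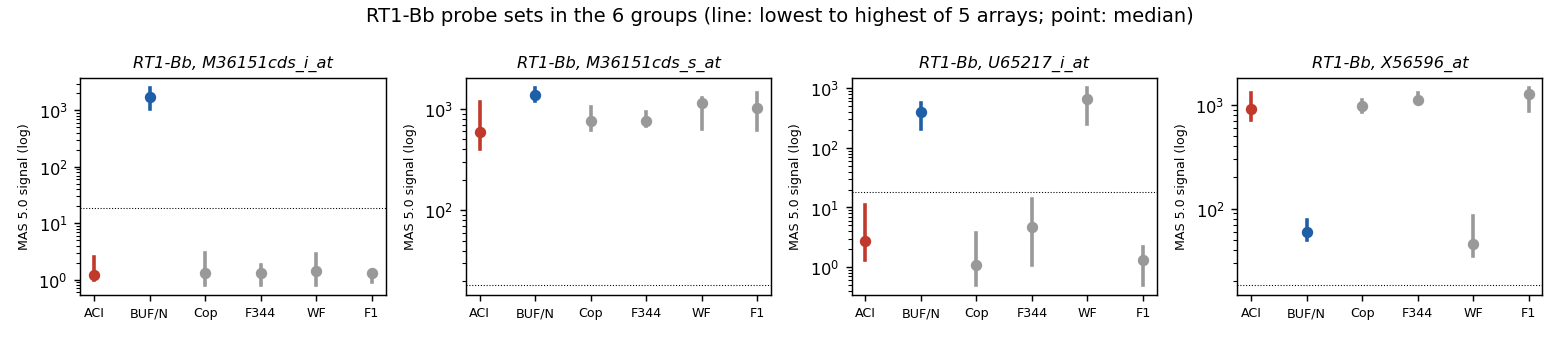
Signals (y axis, log scale) of the 4 RT1-Bb probe sets in the 6 groups, as the range of 5 arrays (line) and their median (point), with ACI red, BUF/N blue and the other groups grey. ACI and BUF/N exchange places between X56596_at and the 2 probe sets M36151cds_i_at and U65217_i_at, and the dotted line is the floor of 18.3.

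Several genes of lipid metabolism rose in ACI. Pnpla3, which encodes a lipase-like protein of lipid droplets induced by feeding, had signals of 211.7, 232.5, 152.5, 293.7 and 646.4 in ACI and 46.6, 57.5, 13.9, 4.2 and 55.7 in BUF/N. Its lowest ACI array was above the highest BUF/N array, and the change was 2.96 ± 0.43 (adjusted p = 1.94e-05). Me1, the cytosolic malic enzyme that supplies NADPH for lipid synthesis, rose by 1.85 ± 0.39, from 158.5 to 377.3 in BUF/N to 637.7 to 1333 in ACI (adjusted p = 0.00167), and by 1.12 to 1.58 on its 3 other probe sets. The smallest of these, on the brightest probe set, was 1.0 without ACI 2 and ACI 5 and lost its call (adjusted p = 0.161), while the other three kept theirs. Scd, the desaturase that makes oleate from stearate, rose by 2.39 ± 0.45 on 1 probe set, where BUF/N spanned 58.2 to 347.8 and ACI 353.6 to 929.0 (adjusted p = 0.000572). On its brighter probe set Scd differed by 0.67, with an adjusted p of 0.0518, although the strains did not overlap there either. Pdhb, a subunit of pyruvate dehydrogenase, rose by 1.84 on 1 probe set and 1.55 on the other (adjusted p = 0.00131 and 0.000131).

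Over the fatty acid synthesis list, 3 of 14 tested genes rose in ACI and 1 fell, with a median change of 0.49 against 0.01 for all genes. Acaca, the carboxylase that commits acetyl-CoA to fat synthesis, rose by 0.94 (adjusted p = 0.0197), from 86.4 to 113.4 in BUF/N to 147.2 to 251.5 in ACI. Gpam, the acyltransferase that opens glycerolipid synthesis, rose by 1.08 (adjusted p = 0.0429), and without ACI 2 and ACI 5 the change was 0.96 and did not pass (adjusted p = 0.187). Acacb, the mitochondrial carboxylase isoform whose product restrains fat oxidation, was the member that fell, by 1.69 on the log2 scale (adjusted p = 0.0156), and without those arrays it changed by −1.05 and lost its call (adjusted p = 0.225). In that fit 1 member of the list, Acaca, rose and 0 fell.

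Of 14 tested sterol synthesis genes 4 rose in ACI, 0 fell and 10 did not pass, with 3 changes below 0 and a median of 0.40. Insig1, a sterol sensor that holds back the transcription factor SREBP, had ACI signals of 1285.6, 1222.3, 1487.1, 1367.8 and 1883.7 and BUF/N signals of 450.1, 408.7, 294.5, 344.9 and 682.9. No arrays overlapped, and Insig1 rose by 1.78 ± 0.23 on this probe set (adjusted p = 4.09e-06) and 1.35 on its other one. Nsdhl and Sqle, enzymes of the cholesterol pathway, rose by 1.25 (adjusted p = 0.00188) and 0.67 (adjusted p = 0.0176). Idi1, the isomerase that supplies isoprenoid units, rose by 0.70 (adjusted p = 0.0475) and lost its call in 14 of the 23 alternatives. The list had 3 members up and 0 down without ACI 2 and ACI 5.

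Fatty acid oxidation went both ways, with 2 of 22 tested genes up, 3 down and a median of −0.15. Over all genes 6.22% rose and 5.8% fell. Acaa2, the mitochondrial thiolase of the last oxidation step, had ACI signals of 752.5, 654.9, 708.2, 1086.3 and 779.6 against 2348.1, 1891.5, 1990.4, 1779.9 and 1942.9 in BUF/N. Every BUF/N array was above every ACI array, and Acaa2 fell by 1.34 on the log2 scale (adjusted p = 2.27e-05). Ech1, an auxiliary isomerase of the same pathway, fell by 0.55 (adjusted p = 0.00597). Etfa, which carries electrons from the acyl-CoA dehydrogenases, and Hadhb, the beta subunit of the trifunctional protein, rose by 0.74 (adjusted p = 0.00123) and 0.54 (adjusted p = 0.00627).

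Markers of fat cells were measured beside these genes. Of 20 adipocyte genes 2 rose, Rbp4 by 0.71 and Acsl1 by 0.65 (adjusted p = 0.00572 and 0.0149), and Cebpb, a transcription factor of adipocyte differentiation that also acts in other cells, fell by 0.56 (adjusted p = 0.0128). The median of the list was 0.20, and its summed signal was 27793 to 34041.5 in ACI and 21301 to 28590 in BUF/N, ranges that overlap. The other 17 did not pass, although 9 of the 20 had an unadjusted p under 0.05. Among them Lep, the hormone leptin, Cfd, adipsin, and Pparg, the master regulator of adipocytes, differed by −0.20, 0.05 and −0.05, with adjusted p of 0.482, 0.871 and 0.907. Fabp4, a fatty acid carrier, Cd36, a fatty acid receptor, Plin1, a coat protein of lipid droplets, and Cidea, another lipid droplet protein, differed by 0.54, 0.57, 0.60 and 0.40 (adjusted p = 0.215, 0.259, 0.0628 and 0.15). Cebpa, a transcription factor of adipocytes, was at −0.88 (adjusted p = 0.0604), and at −0.21 without ACI 2 and ACI 5. The part of fat content in the lipid genes was not tested. Of the respiratory chain, 3 of 28 tested genes rose and 0 fell (median 0.20), led by Sdha at 0.53 and Ndufs1 at 0.74, and of glycolysis 1 of 19 rose, Pfkp by 0.68, and 1 fell, Aldoc by 1.12 (adjusted p = 0.00575 and 0.0209).

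Several genes of the circadian clock fell in ACI. In nearly all cells the activators Clock and Bmal1 drive the Per, Cry and Nr1d repressors and output genes such as Dbp, and the repressors close the loop over a day. Of 9 tested members 5 fell, 0 rose and the median was −0.78. These 9 did not include Clock, Bmal1 or a Cry gene. Dbp, a D-box-binding output factor, had signals on its brighter probe set of 359.0, 163.5, 213.2, 252.9 and 22.7 in ACI and 882.9, 1118.8, 850.2, 768.4 and 964.2 in BUF/N. The ACI arrays were all below the BUF/N arrays, with ACI 5 the lowest, and the change was −2.62 ± 0.41 (adjusted p = 4.98e-05), or −2.98 on the other probe set (adjusted p = 2.94e-08). Per2, a repressor of the loop, had 63.3, 12.3, 39.5, 33.9 and 13.8 in ACI and 109.6, 106.7, 77.0, 131.8 and 182.8 in BUF/N, a change of −1.92 ± 0.35 (adjusted p = 0.000425). Bhlhe41 and Bhlhe40, repressors that bind E-boxes, fell by 0.78 (adjusted p = 0.000561) and 1.15 (adjusted p = 0.00114). Nr1d1, a nuclear receptor that represses Bmal1, fell by 0.91 (adjusted p = 0.0359), with arrays overlapping. Nr1d2, Csnk1d, Tef and Csnk1a1 had changes of −0.59, −0.24, −0.21 and 0.05 and did not pass, although Csnk1d, a kinase that marks Per proteins, fell by 0.49 on its dimmer probe set (adjusted p = 0.0169). The median of Per2 was also low in F1, at 38.5.

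Placed among the other strains, the clock difference was on the ACI side. Against the mean of Cop, F344 and WF, Dbp, Per2 and Bhlhe41 were lower in ACI, with values of −2.59, −2.0 and −1.01 and differed by 0.03, −0.09 and −0.23 in BUF/N, comparisons that share arrays with the one between the strains. In those, 451 probe sets (8.95%) passed for ACI and 953 (18.9%) for BUF/N. Without ACI 2 and ACI 5, Dbp, Per2, Bhlhe41 and Bhlhe40 still passed, with changes of −1.76, −1.41, −0.75 and −1.40, while Nr1d1 changed by −0.71 and did not (adjusted p = 0.229). The time of day of collection was not given for either strain, so its part was not tested.

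**Figure D4:**
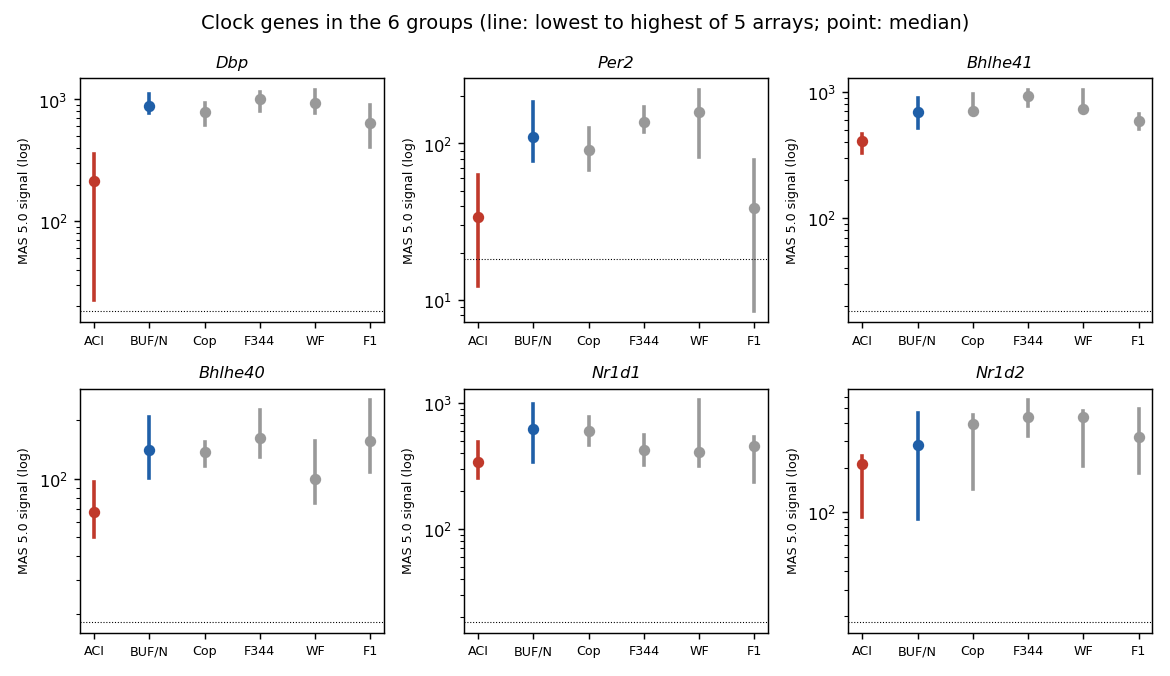
Signals (y axis, log scale) of the 6 clock genes with the smallest adjusted p in the 6 groups, as the range of 5 arrays (line) and their median (point), with ACI red and BUF/N blue. The ACI ranges of Dbp, Per2, Bhlhe41 and Bhlhe40 lie below those of BUF/N, whereas Nr1d1 and Nr1d2 overlap, and the dotted line is the floor of 18.3.

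The promoters of 4 of the 5 clock genes that fell are shown because they hold the letters of a known clock element, printed in capitals. They run from 250 bases before to 50 after an annotated start of the gene, are from RefSeq on the build GRCr8, and read 5′ to 3′ on the strand of the gene. Each was searched on both strands for the E-box CACGTG, the D-box TTATGTAA or TTACGTAA and the core AGGTCA of the ROR element. The Per2 promoter at chr9:99496944-99497243 (minus strand) holds a D-box 192 bases before the start. Those of Bhlhe41 at chr4:180569306-180569605 (minus), Bhlhe40 at chr4:143174200-143174499 (plus) and Nr1d1 at chr10:84229405-84229704 (minus) hold an E-box 48, 220 and 191 bases before it.
Per2: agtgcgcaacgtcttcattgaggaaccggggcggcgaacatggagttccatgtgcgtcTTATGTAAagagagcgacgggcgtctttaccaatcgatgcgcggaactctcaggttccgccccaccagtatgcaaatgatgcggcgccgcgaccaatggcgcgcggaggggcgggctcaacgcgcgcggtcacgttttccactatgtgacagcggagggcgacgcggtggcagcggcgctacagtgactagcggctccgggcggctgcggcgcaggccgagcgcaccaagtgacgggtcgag
Bhlhe41: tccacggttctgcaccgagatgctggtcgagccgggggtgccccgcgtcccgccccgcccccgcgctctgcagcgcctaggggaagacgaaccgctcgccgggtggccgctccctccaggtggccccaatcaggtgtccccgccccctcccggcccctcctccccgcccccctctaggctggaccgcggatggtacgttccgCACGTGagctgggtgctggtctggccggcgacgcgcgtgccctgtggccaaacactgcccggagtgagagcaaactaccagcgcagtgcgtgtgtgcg
Bhlhe40: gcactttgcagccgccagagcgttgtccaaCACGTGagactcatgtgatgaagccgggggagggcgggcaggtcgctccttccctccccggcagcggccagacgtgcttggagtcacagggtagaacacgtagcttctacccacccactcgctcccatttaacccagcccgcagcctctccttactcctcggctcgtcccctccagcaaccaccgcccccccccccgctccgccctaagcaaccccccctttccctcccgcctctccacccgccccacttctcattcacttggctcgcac
Nr1d1: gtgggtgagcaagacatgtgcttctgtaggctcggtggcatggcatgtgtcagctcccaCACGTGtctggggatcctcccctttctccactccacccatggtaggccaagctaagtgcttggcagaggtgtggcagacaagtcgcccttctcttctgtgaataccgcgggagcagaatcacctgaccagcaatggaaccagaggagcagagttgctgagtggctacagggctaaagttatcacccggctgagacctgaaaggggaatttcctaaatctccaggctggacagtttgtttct
Dbp had no match in this window. Neither did the other annotated start of Nr1d1, at chr10:84231763-84232062 (minus), which lies upstream of the one shown. Of the members that did not pass, Tef held an E-box and Nr1d2 the ROR core. Over 33469 RefSeq promoters of this length, 6.418% held the E-box, 1.01% the D-box and 16.18% the ROR core. These matches are letters in a window and not binding sites measured here.

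Several luminal epithelial markers fell in ACI, Lcn2 among them. Of 12 tested, 5 fell, 0 rose and the median was −0.67. All 12 had an unadjusted p under 0.05, and 11 of the changes were below 0. Spint2, a membrane inhibitor of epithelial proteases, had signals of 2043.8, 1313.7, 1568.1, 1765.8 and 1522.3 in ACI and 2853.9, 3016.0, 4283.6, 2700.1 and 2686.0 in BUF/N. The strains did not overlap, and Spint2 fell by 0.91 (adjusted p = 0.000966). Ocln and Cldn3, both proteins of tight junctions, fell by 1.20 (adjusted p = 0.00216) and 1.14 (adjusted p = 0.0017). Cldn3 was at −0.83 without ACI 2 and ACI 5 and lost its call (adjusted p = 0.0553), and in that fit 4 of the 12 fell and 1 rose. Gata3, the transcription factor of luminal cells, went the other way at 1.04 and did not pass with all arrays (adjusted p = 0.0881). Krt18, Krt19 and Epcam, which define the cell type, were above 700 on every array of both strains and differed by −0.36, −0.44 and −0.61 without passing (adjusted p = 0.161, 0.182 and 0.104). The summed signal of the list, which includes Lcn2, was 5554 to 8579.9 in ACI and 12533 to 16970.4 in BUF/N. Of 14 basal and smooth muscle markers 0 passed limma in either direction (4 at an unadjusted p under 0.05), and their median was 0.23.

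Scnn1b, a subunit of the epithelial sodium channel, had signals of 71.9, 42.2, 60.4, 50.3 and 33.3 in ACI and 620.0, 357.2, 350.2, 470.3 and 435.1 in BUF/N. No array overlapped and Scnn1b fell by 3.13 on the log2 scale (adjusted p = 0.000339), with BUF/N at 2.49 and ACI at −0.64 from the mean of Cop, F344 and WF. Tspan8, a tetraspanin of secretory epithelia, was the reverse, at 43.4 to 72.6 in ACI and under the floor on every BUF/N array, a rise of at least 1.62 on the log2 scale (adjusted p = 2.13e-05) that was lost with a floor at the 40th percentile (adjusted p = 0.402). Cst3, a secreted protease inhibitor, fell by 0.61 (adjusted p = 0.00418). Over secretoglobins and other glandular secretions 1 of 11 rose and 3 fell, with Lcn2 counted there too.

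No milk protein gene passed between the strains with all arrays. Of 10 tested, 0 rose and 0 fell by limma at an adjusted p under 0.05 (2 passed at that unadjusted p), and the median was −0.43. Csn2, beta-casein, ran from 173.6 to 4095.0 in ACI and 502.7 to 4409.0 in BUF/N, and Wap, whey acidic protein, from 251.8 to 1081.0 and 253.2 to 3379.0. Both overlapped widely, with changes of −0.64 (adjusted p = 0.708) and −0.37 (adjusted p = 0.777). Both strains were above the mean of Cop, F344 and WF, by 3.22 and 3.86 for Csn2 and 3.33 and 3.70 for Wap. Without ACI 2 and ACI 5, 2 members passed, Xdh at −0.64 (adjusted p = 0.0441) and Muc1 at −0.85 (adjusted p = 0.0372).

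Several genes of antigen presentation fell in ACI. In the class II list 3 of 9 tested fell and 0 rose (median −0.51). One of the 3 was RT1-Bb, counted by its probe set M36151cds_s_at although its probe sets went both ways, so that 2 of 8 fell apart from it. RT1-DMa and RT1-DMb, the chains of the exchange factor that loads peptides on class II, had signals of 236.2 to 304.4 and 224.3 to 437.7 in ACI against 458.2 to 559.3 and 503.2 to 985.5 in BUF/N. The strains did not overlap on either gene, and they fell by 0.82 and 1.11 (adjusted p = 0.00103 for both). RT1-Da, Cd74 and RT1-Ba, which form or chaperone class II molecules, differed by −0.51, −0.38 and 0.62 and did not pass. Cd74 fell by 0.76 on 1 of 3 other probe sets (adjusted p = 0.0246), with arrays overlapping. That probe set was at −0.20 without ACI 2 and ACI 5 and lost its call (adjusted p = 0.506). RT1-Db1 rose by 1.05 on 1 probe set (adjusted p = 0.0109) and differed by −0.52 on its brighter one. In the class I list 4 of 15 fell and 1 rose. RT1-S3, a nonclassical class I gene, fell by 1.33 (adjusted p = 4.83e-05), Psmb8, an immunoproteasome subunit, by 1.06 (adjusted p = 0.000153) and RT1-M3-1 by 1.09 (adjusted p = 0.000637). Tap2, the peptide transporter, rose by 0.77 (adjusted p = 0.00862). As with RT1-Bb, allele differences in these variable genes were not tested.

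Immune cell markers differed from list to list. Cpa3 and Cma1, proteases of mast cell granules, had signals of 698.5 to 984.8 and 1001 to 1418 in ACI against 199.8 to 339.9 and 456.3 to 702.8 in BUF/N. Neither overlapped, and they rose by 1.64 ± 0.17 (adjusted p = 6.98e-08) and 1.01 ± 0.14 (adjusted p = 9.97e-06). The difference lay on the BUF/N side, which was −1.39 and −0.89 from the mean of Cop, F344 and WF, while ACI was 0.25 and 0.12 from it. The other 4 of 6 tested mast cell markers did not pass, Tpsab1, Tpsb2 and Milr1 at 0.34, 0.40 and 0.32 and Kit, which luminal cells also express, at −0.72. The summed signal, which includes Cpa3 and Cma1, was 2606 to 3359.5 in ACI and 1339 to 2111 in BUF/N. Macrophage genes had 2 of 9 lower and 0 higher. Cd14, a receptor for bacterial lipopolysaccharide, fell by 0.83 (adjusted p = 0.00862) on the probe set counted and by 1.06 (adjusted p = 0.00475) on its other one. Without ACI 2 and ACI 5 the first was at −0.71 and did not pass (adjusted p = 0.0863), and the second was at −0.95 and passed (adjusted p = 0.0484). C1qc, a complement chain, fell by 0.51 with signals of the strains overlapping, and was at −0.45 without ACI 2 and ACI 5 (adjusted p = 0.152). Its other probe sets differed by 0.41 and 0.18 and did not pass (adjusted p = 0.47 and 0.765). Of 10 T lymphocyte genes 0 passed limma (1 at an unadjusted p under 0.05, median −0.52), and of the 2 B lymphocyte genes tested 0 passed (2 unadjusted).

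Of 20 chemokines, cytokines and their receptors 3 rose and 2 fell. Ccl11, the eosinophil attractant eotaxin, had signals of 17.0, 25.5, 17.1, 11.1 and 22.7 in ACI, and 52.5, 112.7, 52.1, 104.1 and 146.7 in BUF/N. The ACI arrays were at or near the floor, all below the BUF/N arrays, and Ccl11 fell by 2.07 on the log2 scale (adjusted p = 1.22e-05). Ccl2, the monocyte attractant, rose by 1.10 (adjusted p = 0.000234) and Pf4, platelet factor 4, by 0.68 (adjusted p = 0.00739). Il6st, the shared receptor of the interleukin 6 family, fell by 0.58 (adjusted p = 0.00874).

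Tnfrsf11b encodes osteoprotegerin, the decoy receptor that binds RANKL, a growth signal of the mammary gland. Its signals were 638.4, 454.2, 468.0, 568.8 and 502.3 in ACI and 175.8, 125.8, 130.8, 147.9 and 110.5 in BUF/N. The strains were well apart, and Tnfrsf11b rose by 1.94 ± 0.16 (adjusted p = 3.09e-10), with ACI at 1.43 and BUF/N at −0.51 from the mean of Cop, F344 and WF. Among oestrogen and progesterone response genes 1 of 8 tested rose, Igfbp5, by 1.11 on 1 probe set (adjusted p = 0.0246), where another of its probe sets gave −0.70 and did not pass. Of prolactin and growth hormone signalling 0 of 13 passed limma (2 at an unadjusted p under 0.05, median −0.24). H19, a maternally expressed noncoding RNA, fell by 1.93 (adjusted p = 0.00815), from 967.8 to 2363 in BUF/N to 82.1 to 761.4 in ACI, and it was at −1.38 without ACI 2 and ACI 5, where the call was lost (adjusted p = 0.0787). Inhbb, a subunit of activin B, was under 30 on every ACI array and 72.9 to 169.1 in BUF/N, and it fell by 2.46 (adjusted p = 0.000158).

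Pik3r1, the regulatory subunit of phosphoinositide 3-kinase, had signals of 231.5, 125.7, 269.1, 218.2 and 112.4 in ACI and 688.0, 584.6, 387.0, 672.9 and 652.4 in BUF/N. It fell by 1.69 (adjusted p = 0.000354), although both strains were above the mean of Cop, F344 and WF, ACI by 2.17 and BUF/N by 3.87. Jund, a subunit of the AP-1 transcription factor, was 66.4 to 129.8 in ACI and 11.1 to 22.7 in BUF/N, under the floor on 4 of 5 BUF/N arrays. It rose by 2.28 (adjusted p = 5.52e-05), and its change ran from 0.97 to 2.76 over the alternatives. Cebpd, an early-response transcription factor, fell by 1.97 and 1.07 on 2 probe sets (adjusted p = 0.00208 and 0.000961) and differed by −0.02 on the third. The first of these was at −1.05 without ACI 2 and ACI 5 and lost its call (adjusted p = 0.0874). In the immediate early list 1 of 26 rose and 2 fell, near the shares over all genes, with a median of 0.23. Ccn1, a matrix protein induced by growth factors, rose by 2.26 (adjusted p = 7.71e-06), from 4.8 to 35.8 in BUF/N to 71.0 to 186.5 in ACI.

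The lysosomal gene Gm2a and the detoxifying genes Gstt2 and Ephx2 had probe sets among the largest falls. Gm2a, the activator of ganglioside breakdown, had signals of 153.0, 142.0, 340.1, 288.5 and 31.2 in ACI and 1751.4, 2196.0, 900.0, 1901.4 and 1620.5 in BUF/N. ACI 5 was the lowest, none overlapped, and Gm2a fell by 3.46 (adjusted p = 1.02e-05). Gstt2, a glutathione transferase, was 132.1 to 235.4 in ACI and 597.0 to 977.1 in BUF/N and fell by 2.33 ± 0.18 (adjusted p = 9.55e-11), but its other probe set gave 0.35 and did not pass. Ephx2, the soluble epoxide hydrolase, was under the floor on 4 of 5 ACI arrays and 102.3 to 264.9 in BUF/N, and it fell by 2.79 (adjusted p = 4.33e-05). It fell by 2.01 and 1.86 on other probe sets that were also dim (adjusted p = 0.00144 and 9.97e-06). On its brightest probe set Ephx2 was 180.1 to 282.3 in ACI and 276.0 to 597.4 in BUF/N, which overlap, and the change of −0.93 did not pass (adjusted p = 0.0901). Of 31 glutathione and redox genes 4 fell and 2 rose, where 5.8% and 6.22% of all genes did. Among them Gstt1 fell by 0.72 and Cat, catalase, rose by 1.0 (adjusted p = 0.00478 and 0.00866). Without ACI 2 and ACI 5 they were at −0.54 and 0.85 and did not pass (adjusted p = 0.0854 for both), and 1 of the 31 fell and 0 rose. Of all 3053 genes 100 fell and 98 rose in that fit. Of 24 xenobiotic genes 4 fell and 1 rose, with Cyp27a1, sterol 27-hydroxylase, at −1.0 (adjusted p = 0.000348), Cbr1, carbonyl reductase, at −1.51 (adjusted p = 0.00143) and Akr1c3 at 1.18 (adjusted p = 0.00385).

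Stress and quality-control genes changed in small numbers. Hspa5, the main chaperone of the endoplasmic reticulum, rose by 0.69 (adjusted p = 0.00386) and Erp29 by 0.51, and these were the 2 calls among 15 tested. Hspe1 and Hspd1, the mitochondrial chaperonins, rose by 0.75 (adjusted p = 0.000117) and 0.59 (adjusted p = 0.0193), and Cryab, a small heat shock protein, by 1.26 (adjusted p = 0.00235), making 3 up and 0 down of 15. In the p53 and apoptosis list 3 of 13 fell, 0 rose and the median was −0.33. Ccng1, cyclin G1, a target of p53, had 131.8 to 346.5 in ACI and 566.7 to 823.3 in BUF/N and fell by 1.5 (adjusted p = 8.92e-05), and Gadd45a by 0.68 (adjusted p = 0.0139). Casp6 fell by 0.77 (adjusted p = 0.0429) and lost its call in 9 of the 23 alternatives. Without ACI 2 and ACI 5 it was at −0.58 and did not pass (adjusted p = 0.244), and 1 of the 13 fell and 0 rose. Of 19 cell cycle genes 1 rose, Mcm5, a replication helicase subunit, by 1.16 (adjusted p = 0.0103). Psmb4, a proteasome subunit, fell by 1.27 on its first probe set (adjusted p = 3.82e-05) and differed by −0.12 on another, while Psma1 and Psma2 rose. Of 22 proteasome and ubiquitin genes 2 thus rose and 1 fell, near the shares over all genes. Of 36 ribosomal protein genes 7 fell and 0 rose (median −0.29), and without ACI 2 and ACI 5 0 passed.

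Skeletal muscle genes, markers of a tissue that can lie beside the gland, had changes above 0 in 21 of 23 tested, with a median of 0.86, and 1 passed. This was Myh1, a fast myosin, at 88.6, 197.0, 60.5, 71.8 and 172.3 in ACI and 49.0, 51.7, 44.4, 43.3 and 62.2 in BUF/N. ACI 2 and ACI 5 were the highest, and the change of 1.09 (adjusted p = 0.0062) became 0.55 without them (adjusted p = 0.176). The summed muscle signal was 8249 to 20539.3 in ACI and 6217 to 13433 in BUF/N, and its part in other differences was not tested. Matrix genes had 2 of 28 higher and 1 lower, Mmp2, a gelatinase that remodels stroma, at −1.28 (adjusted p = 7.76e-06), at 541.5 to 677.0 in ACI and 1120 to 1839 in BUF/N. Lyve1, a receptor of lymphatic vessels, rose by 1.28 (adjusted p = 0.00143), the only call among 7 endothelial genes, and 0 of 8 nerve and Schwann cell genes passed limma (1 at an unadjusted p under 0.05). Of 5 erythrocyte genes 2 fell, Hbb by 0.93 and Hbb-b1 by 0.68 (adjusted p = 0.0108 and 0.0324). Among 13 liver-type plasma proteins 2 rose and 2 fell. Alb, albumin, rose by 1.29 with arrays overlapping (adjusted p = 0.0103), where ACI was −0.47 and BUF/N −1.76 from the mean of Cop, F344 and WF. Its other probe sets gave 1.14, which passed (adjusted p = 0.0422), and 0.66, which did not (adjusted p = 0.512). Fgg, a fibrinogen chain, was under the floor on all 5 ACI arrays and at 12.9 to 277.9 in BUF/N on 1 probe set (adjusted p = 0.00476). On its other probe set Fgg was at 18.3 to 97.9 in ACI and 31.3 to 69.8 in BUF/N, a difference of −0.28 that did not pass (adjusted p = 0.733).

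**Figure D5:**
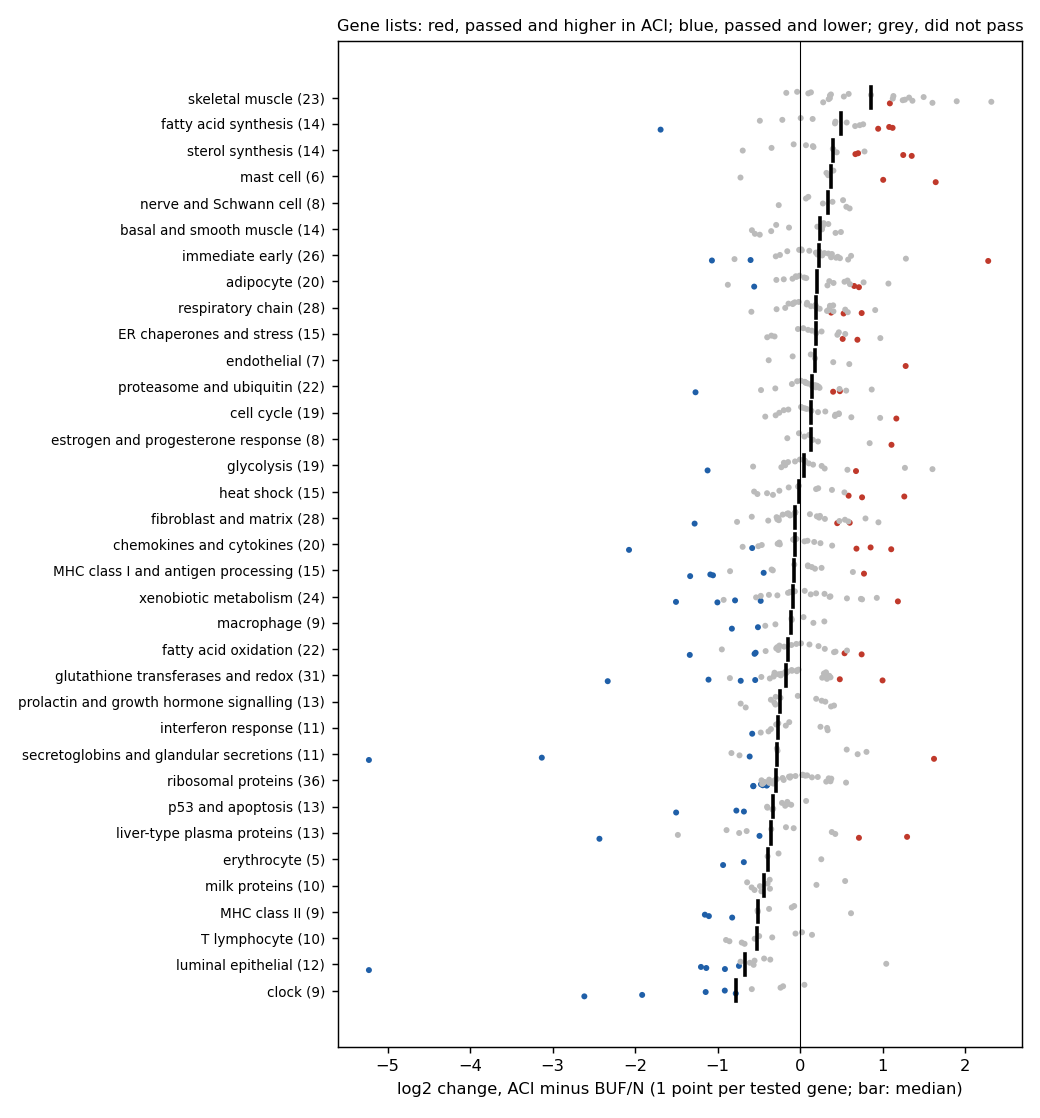
Change of each tested gene (x axis, log2, ACI minus BUF/N) in 35 gene lists (y axis, with the number tested), red where it passed and was higher in ACI, blue where lower and grey where it did not pass, with the list median as a bar. The clock and luminal lists have the lowest medians, −0.78 and −0.67, and skeletal muscle the highest, 0.86, almost all of it grey.

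The remaining genes of the largest changes had these values. Smim7, a small membrane protein, rose by 2.13 (adjusted p = 1.65e-08), at 140.2 to 289.8 in ACI and 39.7 to 62.2 in BUF/N. Mst1, a hepatocyte growth factor relative, Gatm, the first enzyme of creatine synthesis, and Prps2, which makes the ribose donor of nucleotides, rose by 2.10, 1.95 and 1.69 (adjusted p = 7.71e-06, 6.98e-05 and 2.35e-05). The transporters Slc3a1, for cystine and basic amino acids, and Slc1a3, for glutamate, rose by 1.75 and 1.72 (adjusted p = 0.00168 and 3.82e-05). Rnase1, pancreatic-type ribonuclease, fell by 3.09 (adjusted p = 0.00123), with ACI 3 at 132.1 close to BUF/N 3 at 140.7. Spock2, a matrix proteoglycan, fell by 1.88 (adjusted p = 1.94e-05), from 66.7 to 115.7 in BUF/N to 9.8 to 39.4 in ACI.

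Probe sets of 1 gene did not always go together. The other probe sets of Rbp4, Ocln, Etfa, H19, Gadd45a and Erp29 did not pass, with changes of −0.27 and 0.17 for Rbp4, −0.53 and −0.23 for Ocln, 0.32 for Etfa, −0.81 for H19, −0.50 to −0.12 for Gadd45a and 0.35 for Erp29. Acsl1 also passed on another probe set, at 0.89 (adjusted p = 0.00168), but not on those at 0.83 and 0.26 (adjusted p = 0.0538 and 0.617).

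Further calls were lost with fewer arrays. Without ACI 2 and ACI 5 those of Rbp4, Aldoc, Sdha, Ndufs1, Tap2, Il6st, Igfbp5, Gadd45a, Mcm5, Akr1c3, Psma1, Hbb and Hbb-b1 were lost, with adjusted p of 0.0528 to 0.184, and the changes kept their direction. They were larger in that fit for Ndufs1, Igfbp5, Psma1 and Hbb-b1, at 0.79, 1.25, 0.50 and −0.76, and nearly the same for Gadd45a and Hbb, at −0.68 and −0.90. The other probe set of Aldoc and that of Akr1c3 passed there, at −1.32 (adjusted p = 0.0379) and 0.98 (adjusted p = 0.0271). Leaving out 1 array ended the calls of Acaca (without ACI 4, adjusted p = 0.0531), Erp29 (without BUF/N 5, 0.0654), Sqle (without ACI 5 or BUF/N 2, 0.0555 and 0.0711), Hspd1 (without ACI 1 or BUF/N 1, 0.0651 and 0.0515) and Acacb (without ACI 2 or ACI 5, 0.058 and 0.0596). Aldoc lost its call without ACI 5 or BUF/N 3 (0.0661 and 0.0543), Igfbp5 without ACI 4, BUF/N 3 or BUF/N 4 (0.0545, 0.107 and 0.0541) and Nr1d1 without ACI 2, 4 or 5 or BUF/N 1, 2, 4 or 5 (0.0548 to 0.109). The calls of C1qc, Gpam, Idi1, Ndufs1, Sdha, Psma1, Psma2 and Hbb-b1 were each lost without any of several arrays.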

How the data were processed

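RNA from normal mammary gland was measured on 1 Affymetrix rat array per sample, each with 8799 probe sets. The deposited values are linear intensities (signals) computed by the authors with Affymetrix Microarray Suite version 5.0, per the labels' protocols; the annotation and any further normalization are not given in the sources used here. After trimming 2% at each end, the mean signal was 250.29 to 250.42 across all arrays, so no further scaling was done. Precision is limited by how few arrays there are.

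A floor of 18.3, the 25th percentile of all values, was applied before taking log2. Testing was limited to probe sets that exceeded the overall median signal of 78.4 on at least 5 of the 30 single-sample arrays, without controls. Group means of 6 groups were fitted with limma 3.58.1 (variance trend) in R 4.3.3, and p-values were adjusted over all tested probe sets by the Benjamini-Hochberg method. The fit was tested on simulated data. Symbols came from the gene annotation of the array, updated by gene ID for 6994 probe sets; 7018 had 1 symbol, 308 several and 1473 none. Genes named passed with no overlap between the strains (the 15 largest changes in each direction), or were among the up to 4 smallest adjusted p of a list; core clock, milk protein, class II and adipocyte genes were named whatever their result. Gata3, Krt18, Krt19, Epcam and the mast cell markers without a call were named after their values were seen. The 36 lists and the strains compared were chosen with earlier results of these data known, and lists are described by counts and medians, without a test. A list uses each gene's brightest tested probe set. Alternatives tried were other floors, an offset, filters, normalizations, array weights, variance models, a replicate block, fewer arrays and each array left out.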

Additional observations from a re-analysis of the deposited data

Results flagged for a closer look

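In 13 of 218 sets of 5 signals (109 named probe sets in both strains) the highest or lowest array stood apart from the nearest by more than Dixon's limit of 0.71 of the range, and chance alone gives this in about 1 in 20 groups. In ACI the highest array was ACI 4 for Acaa2 (1086.3, next 779.6), ACI 2 for Cat (1091.5, next 758.3), ACI 3 for Ephx2 (49.6, next 11.5) and Rnase1 (132.1, next 38.6), and ACI 5 for Gstt2 (235.4, next 150.6) and Pnpla3 (646.4, next 293.7). The lowest was ACI 5 for Casp6, a caspase (128.1, next 217.9), and ACI 2 for Psma2 (759.0, next 1023.3). In BUF/N the highest was BUF/N 5 for Alb (198.9, next 69.7), Gatm (65.6, next 26.8) and Jund (22.7, next 13.1), BUF/N 2 for Lcn2 (4890.6, next 2655.0) and BUF/N 3 for Spint2 (4283.6, next 3016.0).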

How the results depend on the processing

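Across the 23 alternatives 0 of the changes of the 110 named probe sets that passed reversed. Changes of sign in named genes that did not pass were not counted. Of the 110, 94 were tested in each alternative, of which 53 always kept their call. The other 16 were not tested with the filter on 15 arrays, and 12 of them kept their call in the 22 other alternatives. The list medians moved beyond the replicate spread in 22 of 828 values. With an offset of 50 in place of the floor, 109 probe sets were beyond 2-fold. With array weights 1758 passed for BUF/N against the mean of Cop, F344 and WF. Without ACI 2 and ACI 5, 369 passed (201 higher and 168 lower), 155 were beyond 2-fold and 133 passed for ACI against that mean; fewer arrays enter that fit. Leaving out each array in turn gave 473 to 731 calls, 254 to 377 higher, 215 to 361 lower, 184 to 286 beyond 2-fold and 377 to 516 without overlap. The same gave 177 to 576 for ACI against the other strains, 177 without ACI 2 and 190 without ACI 5, and 530 to 1033 for BUF/N, 530 without BUF/N 3. The cause was not tested. With replicate number as a replicate block 659 passed (354 higher and 305 lower). Deviations of same-numbered arrays correlated at −0.21 to 0.22, and 4 of 10 arrays correlated best with their own number. These were ACI 2, ACI 5, BUF/N 2 and BUF/N 5. Whether same-numbered samples shared more than a number was not tested. Quantile normalization made 49.7% of the calls higher in ACI. Signals under the floor of 18.3 were raised to it, so the size of such changes depends on the floor. Examples are some signals of Ephx2, Inhbb and Ccl11 in ACI and of Jund, Pnpla3 and Ccn1 in BUF/N.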
